A study of Homo sapiens with 26 samples.

Results

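MV4-11 cells that had survived the FLT3 inhibitor quizartinib and then grown for 13 days without it were set against survivors taken straight from the drug. MV4-11 is an established human acute myeloid leukaemia line that carries an internal tandem duplication of FLT3 and an MLL fusion. The comparison holds 4 of the 26 RNA-seq libraries of the series, chosen by their labels. The 13 day group holds 2 libraries of cells that lived through 48 h of 100 nM quizartinib and were then kept for 13 days in medium without drug. The survivor group holds 2 libraries of cells isolated after 48 h in 100 nM quizartinib, with 0 days off drug. A further 2 libraries of untreated cells and 2 of survivors after 30 days off drug come from the same experiment, and they give the spread and the levels before and after. All cells are 1 line in 1 medium, and the labels do not say how survivors were isolated or whether replicates were separate cultures. The p-values therefore measure the spread between these libraries, which may be technical.

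FLT3 is a receptor tyrosine kinase of blood progenitors, and its mutant form drives STAT5, RAS-MAPK and PI3K signalling without ligand. Cells that lose this drive leave the division cycle in G1 or die, and a few persist and can divide again once the drug is gone. Entry into S phase is marked by genes that E2F factors switch on, and the later run to mitosis by genes such as CDC20, CCNB2 and CDK1, whose promoters often hold a CHR element (TTTGAA) and CCAAT boxes. FPKM, the deposited unit, divides the fragments of a gene by its length and by the size of the library. It holds no counts, so the depth behind a value is unknown, and with RNA from a whole culture fewer cells of a kind and less RNA per cell cannot be told apart.

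The 13 day pair stood apart from the other pairs. The median gene differed between 13 day replicates 1 and 2 by 0.466 on the log2(FPKM + 1) scale, against 0.279 within the survivor pair and 0.24 to 0.275 within the other pairs. A difference of log2 1 or more was seen for 19.9% of genes in the 13 day pair and for 8.58% to 9.82% in the others. The 13 day replicate 2 had an FPKM sum of 3714051, of which 79.2% lay on the mitochondrial genome, while the 7 other libraries had sums of 2240874 to 2547791 and mitochondrial shares of 61.3% to 65.5%. The 13 day replicate 1 listed 22840 entries above 0, fewer than the 25653 to 27604 of the others. Most results below are therefore given for each 13 day library.

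The labelled identity held in part. SPI1, the master myeloid transcription factor, had 201 and 165 FPKM at 13 days, against 143 and 116 FPKM in survivors, and CD33, a myeloid surface receptor, had 157 and 178 FPKM, against 143 and 147 FPKM. FLT3 itself had 182 and 365 FPKM at 13 days, against 284 and 406 FPKM in survivors (log2 difference −0.40, adjusted p = 0.519). CSF3R, CEBPA, HOXA9, MEIS1, CD68 and LYZ were also above 30 FPKM in all 4 libraries, while MPO, the granule peroxidase, had 2.81 and 4.41 FPKM at 13 days, against 2.23 and 1.44 FPKM in survivors, and ITGAM had 2.702 and 2.698 FPKM, against 6.11 and 5.92 FPKM. Markers of other cells stayed low. Of 13 erythroid and megakaryocyte markers 7 were listed at 0 in all 4 libraries, of 9 B cell markers 2, of 13 T and NK cell markers 2, of 11 fibroblast and epithelial markers 2, and of 11 mast cell, basophil and eosinophil markers 3. Summed levels at 13 days, against survivors, were 7.153 and 3.288 against 12.71 and 3.592 FPKM for the erythroid list, 2.52 and 2.586 against 6.081 and 4.446 for B cells, and 3.326 and 9.313 against 2.452 and 9.825 for fibroblasts and epithelium. They were 12.05 and 16.99 against 28.54 and 11.93 FPKM for the mast cell list and 67.03 and 120 against 32.19 and 45.82 FPKM for the T and NK list, where nearly all of the sum was NKG7, a granule membrane protein, with 64.1 and 115 FPKM at 13 days, against 27.02 and 41.2 FPKM in survivors. No marker on these lists passed the test, and the part of other cells in the results was not tested.

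Genes were tested with limma on log2(FPKM + 1) over the 8 libraries, for the 18098 entries at 1 FPKM or more in at least 2 of them, and a difference counted as called where the adjusted p (Benjamini-Hochberg) was under 0.05. At 13 days 32 genes rose (0.177% of those tested) and 121 fell (0.669%) relative to survivors. All 153 were shared, which means that each 13 day library lay at least log2 1 beyond the survivors' mean and outside their range. The spread between the 13 day libraries enters this test, so genes on which they differ seldom pass. That all were shared thus follows in part from the test and does not measure how far the 2 libraries agree. Of the genes that rose 17 were protein-coding and 7 small RNAs, and of those that fell 50 were protein-coding and 42 small RNAs, with 57 of the 121 listed at 0 in both 13 day libraries. The counts lean on the other libraries of the fit. With only the 4 libraries compared, 2 rose and 15 fell, and with the replicate number as a block 14 rose and 66 fell. Leaving out 1 untreated, survivor or 30 day library left 3 to 11 that rose and 47 to 66 that fell. Without 13 day replicate 1, 19 rose and 34 fell, and without 13 day replicate 2, 1151 rose and 1512 fell. With protein-coding genes centred within groups of like transcript length, 0 were called.

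Taken alone, the 13 day libraries gave very different counts. Replicate 1 had 1153 genes above survivors (6.37%) and 1518 below (8.39%), while replicate 2 had 19 above (0.105%) and 34 below (0.188%). At an unadjusted p under 0.05 the same limma fit had 2408 above and 3859 below survivors in replicate 1. In replicate 2 it had 936 and 2599. The adjustment thus widened the gap between the libraries. RNASE2 changed by 2.22 and 2.24 with the same SE, at adjusted p of 0.0235 and 0.104. A gene not called in replicate 2 can thus have changed as much as one called in replicate 1. Set directly against each other, replicate 1 was higher than replicate 2 for 165 genes (0.912%), of which 149 were protein-coding, and lower for 48 (0.265%), of which 15 were. These last counts compare 2 libraries, each assumed to vary like the untreated, survivor and 30 day pairs, and not conditions. They too lean on the other libraries: leaving out 1 untreated, survivor or 30 day library left 102 to 639 genes above and 78 to 739 below survivors in replicate 1, 11 to 28 above and 22 to 46 below in replicate 2, and 17 to 72 higher and 14 to 36 lower between the 13 day libraries. With the replicate number as a block, 729 lay above and 809 below survivors in replicate 1, 6 above and 12 below in replicate 2, and 11 were higher and 8 lower between the 13 day libraries. With only the 4 libraries compared, all 6 of these counts were 0 by limma. At an unadjusted p under 0.05 that fit had 1863 genes above and 3038 below survivors in replicate 1, 742 above and 1815 below in replicate 2, and 1443 higher and 1210 lower between the 13 day libraries. Separate changes, called between the libraries and at least log2 1 beyond the survivors in exactly 1 of them, numbered 130 higher and 33 lower in replicate 1, and 6 higher and 14 lower in replicate 2. Another 22 genes were opposed, beyond the survivors on opposite sides. By size alone, 289 genes lay at least log2 1 above survivors in both libraries and 965 below. These were 16.2% of the genes so high in replicate 1 and 35.1% of those so high in replicate 2, and 31.5% and 60.7% of those so low. Both libraries were set against the same survivors, so part of this sharing comes from the survivors' own values. The ranges of the 2 groups did not overlap for 2813 genes higher at 13 days (15.5% of those tested) and 6224 lower (34.4%). A lack of overlap in 1 gene is therefore common here. The plot of each 13 day library's change shows the shared genes along the diagonal, where the test favours them, and the cell cycle genes along the replicate 1 axis.

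**Figure D1:**
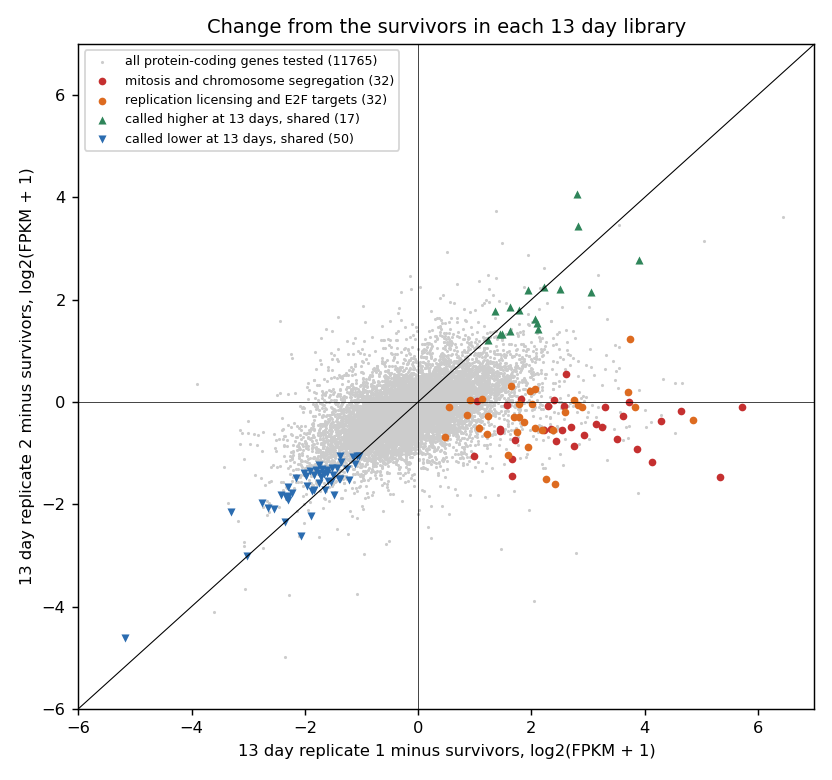
Change from the survivors' mean on the log2(FPKM + 1) scale in 13 day replicate 1 (horizontal) and replicate 2 (vertical) for 11765 protein-coding genes, with 32 mitosis genes, 32 replication genes and the 17 and 50 genes that rose or fell in both libraries marked. Mitosis and replication genes spread to the right at little or no change in replicate 2. MT-CO1, listed at 0 in replicate 2, lies outside the axes.

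The scale of the libraries bears on every direction. The median of all genes tested was −0.178 on the log2 scale at 13 days relative to survivors, −0.204 in replicate 1 and −0.177 in replicate 2. Centring each library on its median moved it to 0.0985, quantile normalisation to 0.0229, and scaling every library to the same FPKM sum to −0.375, with −0.564 in replicate 2. The calls moved with it. At 13 days 41 genes rose and 71 fell with median centring, 64 and 98 with quantile normalisation and 47 and 1875 with equal sums, beside 32 and 121 as deposited. In replicate 1 alone the counts above and below survivors were 1770 and 799, 1405 and 1018, and 1066 and 1737 under the same 3 scalings, and in replicate 2 equal sums gave 88 and 4309. Between the 13 day libraries equal sums gave 1768 genes higher and 56 lower in replicate 1. Changes of lists below are to be read beside these values.

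Change from the survivors also ran with transcript length. Among protein-coding genes split into eighths by their longest annotated transcript, the shortest eighth (177 to 1688 bases) had a median change of 0.369 in replicate 1 and 0.0519 in replicate 2, and the longest eighth (6846 to 109224 bases) had −0.569 and −0.452. The 17 protein-coding genes that rose had a median longest transcript of 1688 bases, the 50 that fell 4448 bases, and all 11764 with a length 3567 bases. Centring the protein-coding genes within each eighth left 0 called by limma, with a lowest adjusted p of 0.0506 and with 1317 higher and 1312 lower at an unadjusted p under 0.05. All 17 and all 50 kept their direction there, with median changes of 1.65 in place of 1.82 and −1.35 in place of −1.64 on the log2 scale. Adjusted p ran from 0.0506 to 0.0686 for the 17 and from 0.0506 to 0.161 for the 50. The part of length in the result was not tested beyond this.

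**Figure D2:**
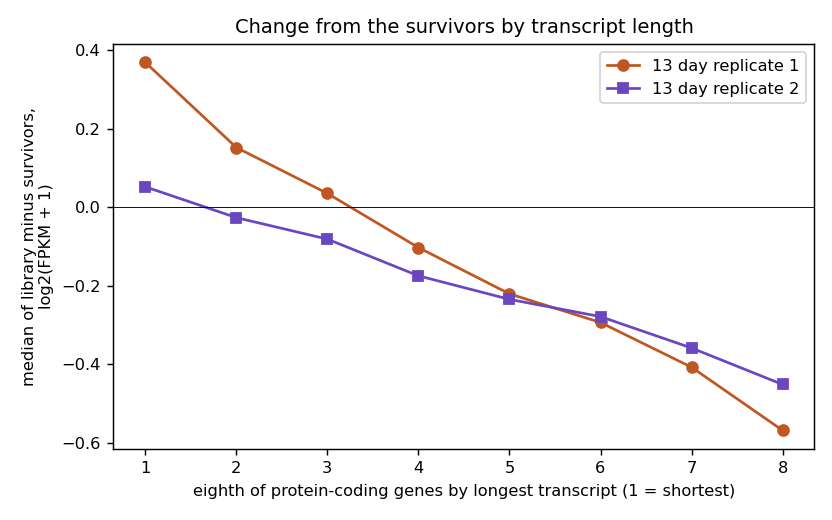
Median change from the survivors on the log2(FPKM + 1) scale (vertical) in each 13 day library for 8 equal groups of protein-coding genes from the shortest to the longest transcript (horizontal). Both lines run downwards, from 0.369 to −0.569 in replicate 1 and from 0.0519 to −0.452 in replicate 2.

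Among the genes that rose were several that encode secreted or granule proteins of myeloid cells. C3, the central complement protein (chr19:6677704-6730562), had 142 and 345 FPKM at 13 days, against 18.8 and 20.5 FPKM in survivors. Untreated cells had 2.08 and 3.57 FPKM and 30 day cells 9.46 and 12.6 FPKM, so that both 13 day libraries stood above all 6 others (log2 fold change 3.43 ± 0.44 SE, adjusted p = 0.0324). C3 was the 1 call among 10 measured complement genes, whose median was −1.06 in replicate 1 and −0.359 in replicate 2. In replicate 1, 2 of the 10 were called lower (8.39% of all genes were). By size, 5 lay at least log2 1 below both survivors there (16.9% of all genes did). RNASE2, the eosinophil-derived neurotoxin of myeloid granules (chr14:20955452-20956436), had 230 and 233 FPKM at 13 days, against 45.3 and 52.0 FPKM in survivors. Its untreated values were 129 and 140 FPKM and its 30 day values 200 and 111 FPKM, again all lower than at 13 days (2.23 ± 0.28 SE, adjusted p = 0.0291). RNASE2 was the 1 call among 10 measured granule genes, whose median was 1.17 in replicate 1 and 0.708 in replicate 2. After scaling to equal FPKM sums the replicate 2 median was 0.0959. RETN, which encodes the myeloid hormone resistin, had 6.22 and 4.90 FPKM at 13 days, against 0.409 and 0.143 FPKM in survivors, with at most 1.49 FPKM in the untreated and 30 day libraries (2.36, adjusted p = 0.0463). CRISPLD2, a secreted protein that binds lipopolysaccharide (chr16:84819984-84920768), had 9.45 and 11.5 FPKM at 13 days, against 1.38 and 2.10 FPKM in survivors. It was under 1 FPKM in untreated and 30 day cells, which makes its 13 day level a peak of the series of times (2.07 ± 0.27 SE, adjusted p = 0.0344). S100A11, a calcium-binding protein, had 514 and 598 FPKM at 13 days, against 171 and 160 FPKM in survivors (1.74, adjusted p = 0.0441), and TMSB4X, which binds actin monomers, 4683 and 4625 FPKM, against 1938 and 2037 FPKM (1.23, adjusted p = 0.0418).

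LYZ, the lysozyme of monocytes and granulocytes, did not pass the test although it held the largest values among these proteins. It had 7123 and 4373 FPKM at 13 days, against 521 and 1185 FPKM in survivors (2.83, adjusted p = 0.0514). Untreated cells had 1304 and 976 FPKM and 30 day cells 881 and 831 FPKM, so the 13 day libraries did not overlap any other. The antisense entry RP11-1143G9.4 in the LYZ region did rise, with 9089 and 6028 FPKM at 13 days, against 388 and 876 FPKM in survivors (3.66, adjusted p = 0.0281). The library kit is a directional one, but no source used here says that the estimate used strand, so reads of the pair cannot be told apart. S100A9, a calprotectin subunit, had 186 and 25.02 FPKM at 13 days, against 2.66 and 0.243 FPKM in survivors, and its partner S100A8 85.6 and 22.3 FPKM, against 3.70 and 0.466 FPKM. Neither passed the test in the group comparison. The 16 measured monocyte and macrophage genes had 0 calls there, and a median of −0.545 in replicate 1 and 0.0868 in replicate 2. In replicate 1, 4 lay at least log2 1 above both survivors and 5 below (9.83% and 16.9% of all genes did). In replicate 2 it was 5 and 1 (4.55% and 8.79% of all genes).

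The metabolic enzymes ASS1 and MMAB also rose. ASS1, which makes argininosuccinate on the way to arginine (chr9:130444929-130501274), had 216 and 98.2 FPKM at 13 days, against 17.2 and 10.5 FPKM in survivors. Untreated cells had 126 and 185 FPKM and 30 day cells 201 and 209 FPKM, so survivors were the low group of the 4 (3.34 ± 0.42 SE, adjusted p = 0.0311). MMAB, an enzyme that makes adenosylcobalamin and shares a promoter region with the sterol gene MVK, had 43.3 and 26.6 FPKM at 13 days, against 9.15 and 9.36 FPKM in survivors (1.77, adjusted p = 0.0419). The 23 measured genes of sterol synthesis and uptake had a median of 0.322 in replicate 1 and 0.296 in replicate 2, or −0.371 in replicate 2 after scaling to equal FPKM sums.

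PIM3 and DUSP2, a kinase and a phosphatase of signalling, rose as well. PIM3, a survival kinase that STAT5 induces (chr22:49960513-49964080), had 31.5 and 28.4 FPKM at 13 days, against 11.2 and 10.1 FPKM in survivors. Both 13 day values were above the 20.1 to 21.9 FPKM of untreated and 30 day cells (1.41 ± 0.17 SE, adjusted p = 0.0276). DUSP2, a phosphatase that switches off MAP kinases, had 9.40 and 4.58 FPKM at 13 days, against 0.228 and 0.275 FPKM in survivors (2.61, adjusted p = 0.038). PIM1, the related kinase, did not pass the test, with 13.2 and 11.0 FPKM at 13 days, against 10.1 and 6.89 FPKM in survivors, while untreated cells had 65.1 and 56.3 FPKM and 30 day cells 98.7 and 86.7 FPKM. Of the 20 measured FLT3, STAT5 and MAPK output genes only PIM3 rose in the group comparison, and the list's median was 0.591 in replicate 1 and 0.423 in replicate 2, or −0.0206 in replicate 2 after scaling to equal FPKM sums. Replicate 1 alone added 2 inhibitors of signalling. CISH, which STAT5 induces against cytokine receptors, had 7.13 and 4.12 FPKM at 13 days, against 1.62 and 2.00 FPKM in survivors, and SPRED2, which acts on RAS-MAPK signalling, 4.95 and 1.26 FPKM, against 0.667 and 1.15 FPKM. Smaller rises were those of CITED4, a transcriptional coactivator (1.80), NXT1, an mRNA export factor (1.85), RIN1, a RAS effector (1.39), and AGTRAP, a receptor-associated protein (1.501), each past the test. Of the 17 protein-coding genes that rose, 10 lay above all untreated, survivor and 30 day libraries, 1 above untreated cells alone, and 6, among them ASS1, DUSP2, MMAB and NXT1, within or short of the untreated values. The 17 were selected on the same 13 day values, so part of this is built in, and the share among all genes was not counted.

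**Figure D3:**
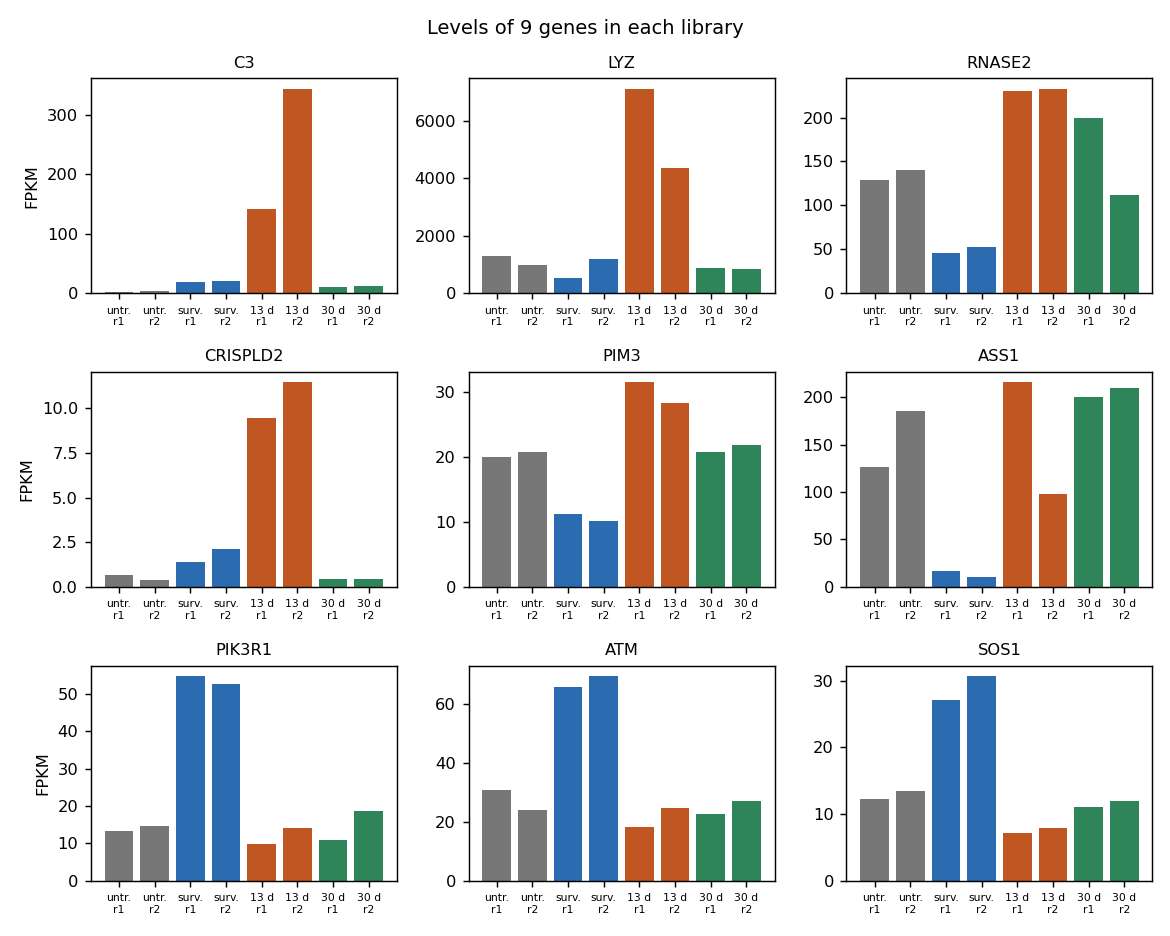
FPKM (vertical, each axis from 0) of 9 genes in each of the 8 libraries, in the order untreated, survivors, 13 days and 30 days, replicates 1 and 2. C3, LYZ, RNASE2, CRISPLD2 and PIM3 are highest in both 13 day libraries, ASS1 is lowest in survivors, and PIK3R1, ATM and SOS1 are high in survivors alone. LYZ did not pass the test.

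Among RNAs encoded by the mitochondrial genome, MT-CO2, a subunit of cytochrome c oxidase (position 7586 to 8269 of that genome), rose in both libraries. It had 14266 and 18980 FPKM at 13 days, against 5716 and 5413 FPKM in survivors (1.56, adjusted p = 0.0367). The median of the 13 genes was 0.549 in replicate 1 and 1.29 in replicate 2, and 0.593 in replicate 2 after scaling to equal FPKM sums. In replicate 2, MT-ND4 with 26045, MT-ND5 with 5145 and MT-ND6 with 6097 FPKM were called above survivors as well (0.105% of all genes were). In replicate 1 the 4 called higher were MT-CO2, MT-CO3, MT-ATP6 and MT-ND6 (6.37% of all genes were). With any 1 untreated, survivor or 30 day library left out, or with the replicate number as a block, 0 of the 13 were called higher in replicate 2 by limma, while with protein-coding genes only 11 were. At an unadjusted p under 0.05, 12 were higher in replicate 2 with all 8 libraries in the fit (936 of all 18098 genes were). MT-CO1, by contrast, was listed at 0 in 13 day replicate 2, against 9034 FPKM in replicate 1 and 6718 and 6226 FPKM in survivors. It was the 1 protein-coding gene listed at 0 in that library alone with 10 FPKM or more in each other library, and a 0 in such a file can be a failed estimate.

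The protein-coding genes that fell included several of signalling and of chromatin. PIK3R1, the regulatory subunit of PI3-kinase (chr5:68215720-68301821), had 9.84 and 14.1 FPKM at 13 days, against 54.7 and 52.7 FPKM in survivors. The 13 day values sat within reach of untreated cells, with 13.2 and 14.5 FPKM, and of 30 day cells, with 10.8 and 18.7 FPKM (−2.09 ± 0.30 SE, adjusted p = 0.0442). SOS1, the exchange factor that activates RAS, had 7.09 and 7.89 FPKM at 13 days, against 27.1 and 30.7 FPKM in survivors, and 11.1 to 13.4 FPKM in the untreated and 30 day libraries (−1.81, adjusted p = 0.0184). RASAL2, a RAS GTPase-activating protein, had 6.62 and 8.92 FPKM at 13 days, against 34.8 and 38.3 FPKM in survivors (−2.11, adjusted p = 0.0215). An activator and an inhibitor of RAS thus fell together. IRAK4, the kinase below Toll-like receptors, averaged 17.5 FPKM at 13 days, against 50.8 FPKM in survivors, with no overlap (−1.503, adjusted p = 0.0361). PIK3R1 was the 1 member to fall of 9 measured insulin and IGF signalling genes, whose list median was −1.06 in replicate 1 and −0.167 in replicate 2. IGFBP2, which binds insulin-like growth factors, had 89.4 and 3.64 FPKM at 13 days, against 3.80 and 1.67 FPKM in survivors, and was called in replicate 1 alone (adjusted p = 0.0155).

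Also lower at 13 days were ATM, XPC, TRIM22 and IFITM1. ATM, the kinase that signals DNA double-strand breaks (chr11:108222484-108369102), had 18.3 and 24.6 FPKM at 13 days, against 66.0 and 69.6 FPKM in survivors. Untreated cells had 30.8 and 24.1 FPKM, so only the survivors were high (−1.63 ± 0.22 SE, adjusted p = 0.0387). XPC, which recognises DNA damage for excision repair and is a p53 target (chr3:14145147-14178783), had 11.6 and 11.4 FPKM at 13 days, against 38.5 and 33.3 FPKM in survivors (−1.56 ± 0.18 SE, adjusted p = 0.0262). It was the 1 call among 19 p53 targets in the group comparison. The list's median was 0.00395 in replicate 1, where 3 were called lower (8.39% of all genes were). It was −0.617 in replicate 2, where limma called 0 (1 higher and 6 lower at an unadjusted p under 0.05). Of all 18098 genes 936 were higher and 2599 lower at that p in replicate 2. TRIM22, an interferon-induced antiviral protein, had 39.7 and 48.9 FPKM at 13 days, against 127 and 121 FPKM in survivors (−1.47, adjusted p = 0.0209), and IFITM1, an interferon-induced membrane protein, 28.2 and 41.3 FPKM, against 96.5 and 137 FPKM (−1.72, adjusted p = 0.0487). None of the 21 measured interferon-stimulated genes on the list of that name was called by limma in the group comparison. At an unadjusted p under 0.05, 4 were lower (3052 of all 18098 genes were). The list had a median of −1.31 in replicate 1 and −0.248 in replicate 2. In replicate 1, 13 of the 21 lay at least log2 1 below both survivors (16.9% of all genes did) and 1 was called. In replicate 2 it was 4 of 21 (8.79% of all genes) and 0. By limma 3 were lower there at an unadjusted p under 0.05 (2599 of all 18098 genes were). The called member was STAT2, a factor of the interferon response, which had 25.5 and 65.4 FPKM at 13 days, against 147 and 166 FPKM in survivors (−2.57 in replicate 1, adjusted p = 0.0107; −1.91 over both, adjusted p = 0.0864).

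Chromatin and transcription proteins among those that fell were SMARCC2 and ARID1A of the SWI/SNF remodelling complexes, MED12 of the mediator complex, POLR2A, the largest subunit of RNA polymerase II, KDM4A, a histone demethylase, and OGT, which adds GlcNAc to proteins. SMARCC2 had 30.4 and 34.3 FPKM at 13 days, against 102 and 108 FPKM in survivors (−1.67, adjusted p = 0.0163), and ARID1A 35.3 and 35.8 FPKM, against 74.9 and 76.2 FPKM (−1.07, adjusted p = 0.0339). POLR2A had 29.9 and 31.6 FPKM at 13 days, against 98.2 and 77.2 FPKM in survivors (−1.47, adjusted p = 0.0289). All of these except KDM4A and OGT were below every untreated, survivor and 30 day value, as were 26 of the 50 protein-coding genes that fell, while 22 lay within or short of the untreated values. Selection of the 50 on the same 13 day values builds in part of this, and the share among all genes was not counted. On the means untreated cells were lower than survivors in all 50 too, with an overlap of their libraries for SEPT11. Repeated genes led by size. GOLGA8N, GOLGA8R and GOLGA8K, near-identical copies whose fragments may be split between them, fell by 2.72, 2.37 and 2.36 on the log2 scale, and ERV3-1, an endogenous retroviral envelope gene, by 2.12. HIST1H2BK, a histone gene, had 5.14 and 7.46 FPKM at 13 days, against 28.2 and 30.8 FPKM in survivors (−2.08, adjusted p = 0.0324).

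Very short RNAs filled the extremes of both directions. MIR6819, a microRNA precursor gene, was listed at 0 in both 13 day libraries, against 1159 and 608 FPKM in survivors, and SNORD83B, a small nucleolar RNA, had 245 and 288 FPKM at 13 days while survivors were listed at 0. No fold is given for either, since a listed 0 can be a failed estimate and a few fragments give a high FPKM on so short a gene.

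Genes of cell division separated the 13 day libraries more than any other list measured by the medians. All 32 measured genes of mitosis and chromosome segregation were higher in replicate 1 than in replicate 2, 26 of them called (0.912% of all genes were called so), with a median difference of 3.15 on the log2 scale. Their median level was 5.23 in replicate 1 and 1.47 in replicate 2, against 2.22 and 1.96 in the survivors, on the log2(FPKM + 1) scale. Untreated cells had 6.04 and 6.17 and 30 day cells 5.81 and 6.06. Replicate 1 thus sat nearer to the untreated and 30 day libraries, though below each of them, and replicate 2 near survivors. Relative to survivors 29 of the 32 were called higher in replicate 1 (6.37% of all genes were) and 0 in replicate 2. In replicate 2, 5 lay at least log2 1 below (8.79% of all genes did). By limma 11 were lower there at an unadjusted p under 0.05 (2599 of all 18098 genes were). No member passed limma's comparison of both 13 day libraries with survivors, where the list's median was 1.13. In that comparison 1 was higher at an unadjusted p under 0.05 (1154 of all 18098 genes were).

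Promoters of 3 of these genes are shown because their FPKM turned on the library and because the elements can be read in them. They run from 250 bases before to 50 bases after the start, as RefSeq gives it on GRCh38.p14, and capitals mark TTTGAA and CCAAT on either strand.
CDC20 (chr1:43358731-43359030, + strand): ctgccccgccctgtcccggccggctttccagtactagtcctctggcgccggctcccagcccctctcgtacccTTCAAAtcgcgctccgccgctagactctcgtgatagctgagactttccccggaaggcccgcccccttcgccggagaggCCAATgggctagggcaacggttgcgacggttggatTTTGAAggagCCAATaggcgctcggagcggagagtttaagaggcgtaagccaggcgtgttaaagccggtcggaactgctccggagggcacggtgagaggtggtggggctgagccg
CCNB2 (chr15:59104896-59105195, + strand): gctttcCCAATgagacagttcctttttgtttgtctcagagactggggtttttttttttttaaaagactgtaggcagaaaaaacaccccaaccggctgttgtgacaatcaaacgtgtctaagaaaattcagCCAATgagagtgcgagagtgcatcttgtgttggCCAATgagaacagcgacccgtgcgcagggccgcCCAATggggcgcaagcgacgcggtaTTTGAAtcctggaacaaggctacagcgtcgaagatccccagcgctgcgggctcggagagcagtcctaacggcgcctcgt
CDK1 (chr10:60778081-60778380, + strand): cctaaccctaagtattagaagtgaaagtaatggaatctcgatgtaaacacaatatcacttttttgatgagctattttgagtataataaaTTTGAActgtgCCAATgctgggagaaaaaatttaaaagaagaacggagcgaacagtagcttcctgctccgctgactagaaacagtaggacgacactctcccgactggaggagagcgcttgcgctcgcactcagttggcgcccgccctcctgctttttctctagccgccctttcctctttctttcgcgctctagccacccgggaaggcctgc
CDC20 activates the anaphase-promoting complex, CCNB2 is a mitotic cyclin, and CDK1 is the kinase that cyclins of this kind switch on. Each of the 3 windows holds at least 1 TTTGAA and 1 CCAAT. A promoter was at hand for 26 of the 32 mitosis genes, of which 15 (57.7%) held TTTGAA and 19 (73.1%) CCAAT on either strand. Among the 8919 protein-coding genes tested that had a promoter, the shares were 9.68% and 36.8%, and among all 27305 promoters 15.4% and 35.7%. Of 27 promoters of replication genes 0 held TTTGAA, 16 (59.3%) held CCAAT and 8 (29.6%) held the E2F element TTCCCGCC, which 5.09% of the genes tested had. Of 18 promoters of sterol synthesis and uptake genes 15 (83.3%) held CCAAT, so a high share of CCAAT was not particular to cell cycle genes. TTTGAA was found in 29 of 87 promoters (33.3%) of the protein-coding genes separately higher in replicate 1. These overlap the mitosis list, with CDC20 and CDK1 among them, so their share is not a separate observation. TTTGAA was found in 0 of 13 promoters of the protein-coding genes that rose in both libraries and in 4 of 37 (10.8%) of those that fell. A match is a description of letters, not a bound site.

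Beside those promoters stand the levels. CDC20 had 61.9 and 1.21 FPKM at 13 days, against 2.16 and 0.994 FPKM in survivors, with a difference between the 13 day libraries of 4.83 ± 0.40 (SE, adjusted p = 0.0171). CCNB2 had 49.9 and 3.84 FPKM at 13 days, against 6.05 and 2.80 FPKM in survivors (3.40 ± 0.43 SE, adjusted p = 0.0457). CDK1 had 43.3 and 2.31 FPKM at 13 days, against 3.77 and 3.52 FPKM in survivors (3.74 ± 0.20 SE, adjusted p = 0.00914). For all 3 genes replicate 1 was the high library and replicate 2 lay within or near the survivors. MKI67, the proliferation antigen (chr10:128096659-128126385), had 46.7 and 0.204 FPKM at 13 days, against 2.44 and 1.16 FPKM in survivors (5.31 ± 0.40 SE, adjusted p = 0.0163). UBE2C, the ubiquitin-conjugating enzyme of the anaphase-promoting complex (chr20:45812576-45816957), had 157 and 0.422 FPKM at 13 days, against 5.28 and 1.44 FPKM in survivors (6.80 ± 0.63 SE, adjusted p = 0.0226). MKI67 and UBE2C were opposed genes, with replicate 2 below both survivors, as were 12 other protein-coding genes, MATK, WDR76, ANLN, CDKN3, NCAPG, NUSAP1, POLE2, CDT1, EXO1, FANCI, HELLS and KIAA0101.

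Replication genes followed the same split with a smaller difference. Of 32 measured genes of replication licensing and E2F targets all were higher in replicate 1 than in replicate 2. The test called 15 of them so (0.912% of all genes were), with a median difference of 2.30. Relative to survivors 26 were called higher in replicate 1 (6.37% of all genes were), with a list median of 1.96. In replicate 2 limma called 0 higher, with a median of −0.259 and with 1 higher and 9 lower at an unadjusted p under 0.05. Of all 18098 genes 936 were higher and 2599 lower at that p. MYBL2, a transcription factor of cycling cells (chr20:43667019-43716496), had 62.4 and 0.127 FPKM at 13 days, against 0.302 and 0.112 FPKM in survivors (5.81 ± 0.24 SE, adjusted p = 0.0087). CDC45, a helicase cofactor at replication origins, had 37.3 and 0.0298 FPKM at 13 days, against 0.132 and 0.534 FPKM in survivors (5.22, adjusted p = 0.00961). E2F1, the founding factor of the family, had 28.5 and 1.58 FPKM at 13 days, against 0.884 and 1.72 FPKM in survivors (3.52 ± 0.35 SE, adjusted p = 0.0266), and PCNA, the sliding clamp, 214 and 35.0 FPKM, against 55.5 and 45.4 FPKM (2.58, adjusted p = 0.0146). Not every gene of the list moved so far. CCNE2, the cyclin of late G1, had 8.81 and 5.28 FPKM at 13 days, against 6.09 and 5.35 FPKM in survivors (adjusted p between the 13 day libraries = 0.231).

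These counts rest on the libraries that give the spread. With only the 4 libraries compared, 0 mitosis and 0 replication genes were called by limma between the 13 day libraries, while 31 and 27 of 32 had an unadjusted p under 0.05 there. Leaving out either survivor library left 14 to 15 mitosis genes and 6 replication genes called, leaving out either untreated library 3 and 1, and leaving out either 30 day library 4 and 0. With the replicate number as a block 3 and 1 were called. In each of these fits all 32 and all 32 were higher in replicate 1. Leaving out other libraries could not change this, since the difference is taken between the 13 day libraries alone. It is therefore no check of the direction. The replicate block could change it, and there the median differences were 3.17 and 2.29, against 3.15 and 2.3 without the block. Centred within eighths of transcript length, 30 and 25 were called. The calls of replicate 1 over survivors ranged from 14 to 29 for the mitosis list and from 7 to 23 for the replication list when 1 library was left out.

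**Figure D4:**
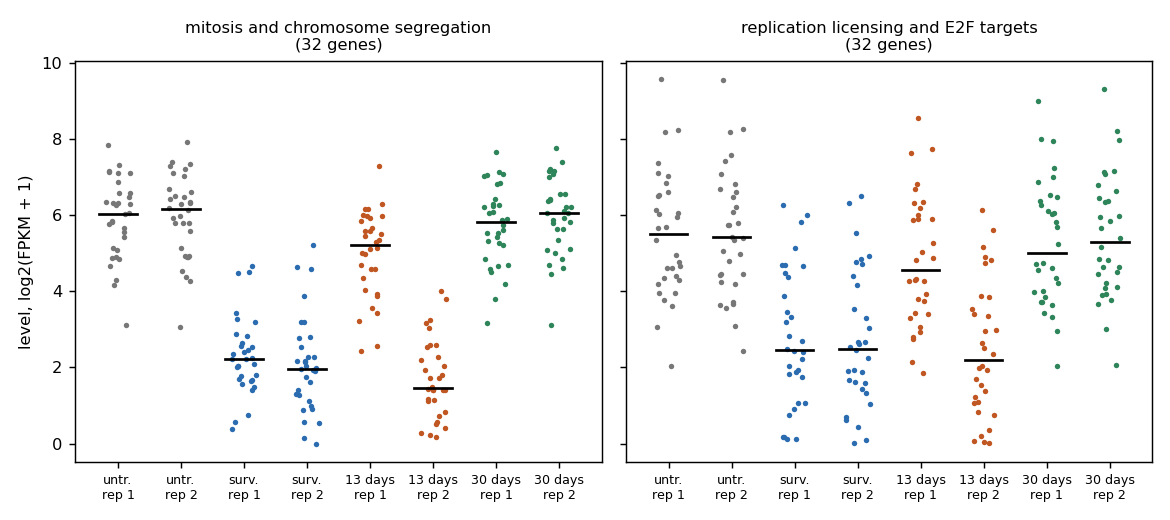
Level on the log2(FPKM + 1) scale (vertical) of the 32 mitosis genes (left) and 32 replication genes (right) in each of the 8 libraries, with each dot a gene and each bar the list's median. The median mitosis gene is at 5.23 in 13 day replicate 1 and at 1.47 in replicate 2, against 2.22 and 1.96 in survivors.

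Nucleotide supply and DNA repair sided with replicate 1 too. Of 19 nucleotide genes 11 were called above and 1 below survivors in replicate 1 (6.37% and 8.39% of all genes were). In replicate 2 limma called 0 (1 higher and 4 lower at an unadjusted p under 0.05). Of all 18098 genes 936 were higher and 2599 lower at that p. TYMS, which makes thymidylate, had 105 and 3.53 FPKM at 13 days, against 4.79 and 4.04 FPKM in survivors, and TK1, which salvages thymidine, 48.7 and 0.413 FPKM, against 1.62 and 0.764 FPKM. GART of purine synthesis was the exception, with 21.8 and 34.8 FPKM at 13 days, against 49.9 and 59.1 FPKM in survivors. Of 18 repair and checkpoint genes 10 were called above survivors in replicate 1, and ATM below. With 1 library left out of the fit these calls above survivors ranged from 2 to 9 on each of the 2 lists. BRCA1, a homologous recombination protein, had 18.2 and 5.41 FPKM at 13 days, against 5.36 and 5.60 FPKM in survivors. UHRF1, which recruits the maintenance DNA methyltransferase, had 52.97 and 12.5 FPKM at 13 days, against 5.03 and 6.10 FPKM in survivors, and was called in replicate 1.

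Growth genes were higher in replicate 1 by less. MYC, which drives ribosome production, had 118 and 44.2 FPKM at 13 days, against 48.0 and 55.7 FPKM in survivors, and was called in replicate 1 alone (1.17, adjusted p = 0.0226). Untreated cells had 161 FPKM in both libraries. Of 20 MYC targets and ribosome biogenesis genes 11 were called above survivors in replicate 1 (6.37% of all genes were), with a list median of 0.759. In replicate 2 limma called 0, with a median of 0.0912 and with 3 higher and 2 lower at an unadjusted p under 0.05. Of all 18098 genes 936 were higher and 2599 lower at that p. NOP56, a nucleolar protein of snoRNPs, had 374 and 167 FPKM at 13 days, against 139 and 148 FPKM in survivors, and SRM, the spermidine synthase, 181 and 81.8 FPKM, against 50.7 and 57.0 FPKM. Glycolysis gave 8 of 18 above survivors in replicate 1, with a median of 0.823 there and 0.0768 in replicate 2. LDHA, which makes lactate, had 352 and 146 FPKM at 13 days, against 149 and 153 FPKM in survivors, and was the 1 glycolytic gene called between the 13 day libraries (1.26, adjusted p = 0.0435). Heat shock genes gave 5 of 10, with HSPA8, a constitutive chaperone, at 730 and 344 FPKM at 13 days, against 230 and 238 FPKM in survivors. Serine and one-carbon enzymes gave 3 of 12, namely PSAT1, MTHFD1 and the amino acid transporter SLC7A5, which had 49.8 and 12.9 FPKM at 13 days, against 6.69 and 6.65 FPKM in survivors. FASN, which builds palmitate, had 125 and 41.8 FPKM at 13 days, against 36.4 and 28.2 FPKM in survivors (1.93 in replicate 1, adjusted p = 0.0123). Cytosolic ribosomal proteins had 0 calls among 20 by limma and medians of 0.09 and −0.207. At an unadjusted p under 0.05, 1 was higher in replicate 1 (2408 of all 18098 genes were). In replicate 2, 4 were lower at that p (2599 of all genes were). With 1 library left out of the fit, the calls in replicate 1 ranged from 0 to 4 for ribosome biogenesis, 0 to 4 for glycolysis and 0 to 4 for heat shock genes. Scaled to equal FPKM sums, the replicate 2 medians of glycolysis and of heat shock genes turned below 0.

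Immediate early genes, which growth factors and cell handling switch on within minutes, had the higher median in replicate 2. Of 13 measured, 10 lay at least log2 1 above both survivors in replicate 2 and 5 in replicate 1, with medians of 1.80 and 0.547, and of 0.845 in replicate 2 after scaling to equal FPKM sums. Of all genes tested 4.55% lay so in replicate 2 and 9.83% in replicate 1. By the test 3 of the 13 were called above survivors in replicate 1 (6.37% of all genes were), EGR1, EGR2 and DUSP2. In replicate 2 it was 2 (0.105% of all genes), EGR1 and ZFP36. With 1 library left out the calls numbered 0 to 2 in replicate 1 and 1 in replicate 2. EGR1, a zinc finger factor below MAPK signalling, had 34.2 and 179 FPKM at 13 days, against 14.3 and 11.0 FPKM in survivors. It was called above survivors in each library, with 1.37 in replicate 1 (adjusted p = 0.0184) and 3.73 in replicate 2 (adjusted p = 0.00826), but not in the comparison of groups, since the 13 day libraries differed (−2.35 ± 0.22 SE, adjusted p = 0.0231). ZFP36, which degrades cytokine mRNAs (chr19:39406813-39409412), had 134 and 354 FPKM at 13 days, against 97.8 and 84.2 FPKM in survivors (difference between the 13 day libraries −1.39, adjusted p = 0.0471). FOSB had 61.4 and 280 FPKM at 13 days, against 130 and 46.9 FPKM in survivors, an overlap of the groups, and was not called.

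Some genes were low in replicate 1 and lay within log2 1 of the survivors in replicate 2. GSTM2, a glutathione transferase, had 5.82 and 56.8 FPKM at 13 days, against 26.7 and 35.5 FPKM in survivors (difference between the 13 day libraries −3.08 ± 0.37 SE, adjusted p = 0.041). GSTM2 belongs to a cluster of close paralogs, and its fragments may be shared with them. BMF, a pro-apoptotic BCL2 family member, had 8.26 and 40.3 FPKM at 13 days, against 60.0 and 61.7 FPKM in survivors, and DAPK2, a death-associated kinase, 0.299 and 7.10 FPKM, against 6.73 and 5.95 FPKM. In untreated cells BMF had 10.9 and 8.72 FPKM and DAPK2 0.614 and 0.613 FPKM, so that replicate 1 lay near untreated cells for both. ASAH1, the acid ceramidase of lysosomes, had 76.1 and 227 FPKM at 13 days, against 148 and 156 FPKM in survivors (−1.56, adjusted p = 0.0391). Genes separately low in replicate 2 numbered 14, of which 9 are protein-coding.

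Correlations of whole libraries over all genes tested put the split in numbers, as a description across genes that are not independent. Replicate 1 had Pearson's r of 0.886 and 0.882 with the untreated libraries and 0.846 and 0.834 with the survivors. Replicate 2 had 0.876 and 0.881 with the survivors and 0.844 and 0.845 with the untreated libraries. The 13 day pair correlated at 0.870, and each other pair of replicates at 0.906 to 0.923.

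Immune and identity lists gave few calls. CIITA, the master regulator of MHC class II, had 14.2 and 21.02 FPKM at 13 days, against 34.2 and 18.6 FPKM in survivors, and CD74, the invariant chain, 1255 and 1335 FPKM, against 2143 and 841 FPKM, both with overlapping groups. None of the 6 measured MHC class II genes passed limma's test, with 0 at an unadjusted p under 0.05, and the sign of the list's median turned with the scaling. NR3C1, the glucocorticoid receptor, had 12.8 and 14.7 FPKM at 13 days, against 17.3 and 19.2 FPKM in survivors, and of 16 measured genes of that receptor and its targets 4 were called above survivors in replicate 1 (6.37% of all genes were), and 1 to 2 with 1 library left out. These 4 were MT1X and MT2A, metal-binding metallothioneins, and the chaperones FKBP4 and HSP90AA1. FKBP4 had 61.5 and 15.3 FPKM at 13 days, against 8.64 and 10.2 FPKM in survivors (difference between the 13 day libraries 1.94, adjusted p = 0.031). CD68, a lysosomal protein of macrophages, had 76.7 and 142 FPKM at 13 days, against 365 and 298 FPKM in survivors, below survivors in replicate 1 by the test (−2.09, adjusted p = 0.0301), while untreated cells had 56.2 and 30.0 FPKM. Adhesion and migration genes had a median of −0.757 in replicate 1 and −0.403 in replicate 2, with 3 of 19 called lower in replicate 1 (8.39% of all genes were). Of 26 lysosome and autophagy genes 2 were called lower there, and only this count is near the share of all genes. The plot of list medians sets these lists side by side.

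**Figure D5:**
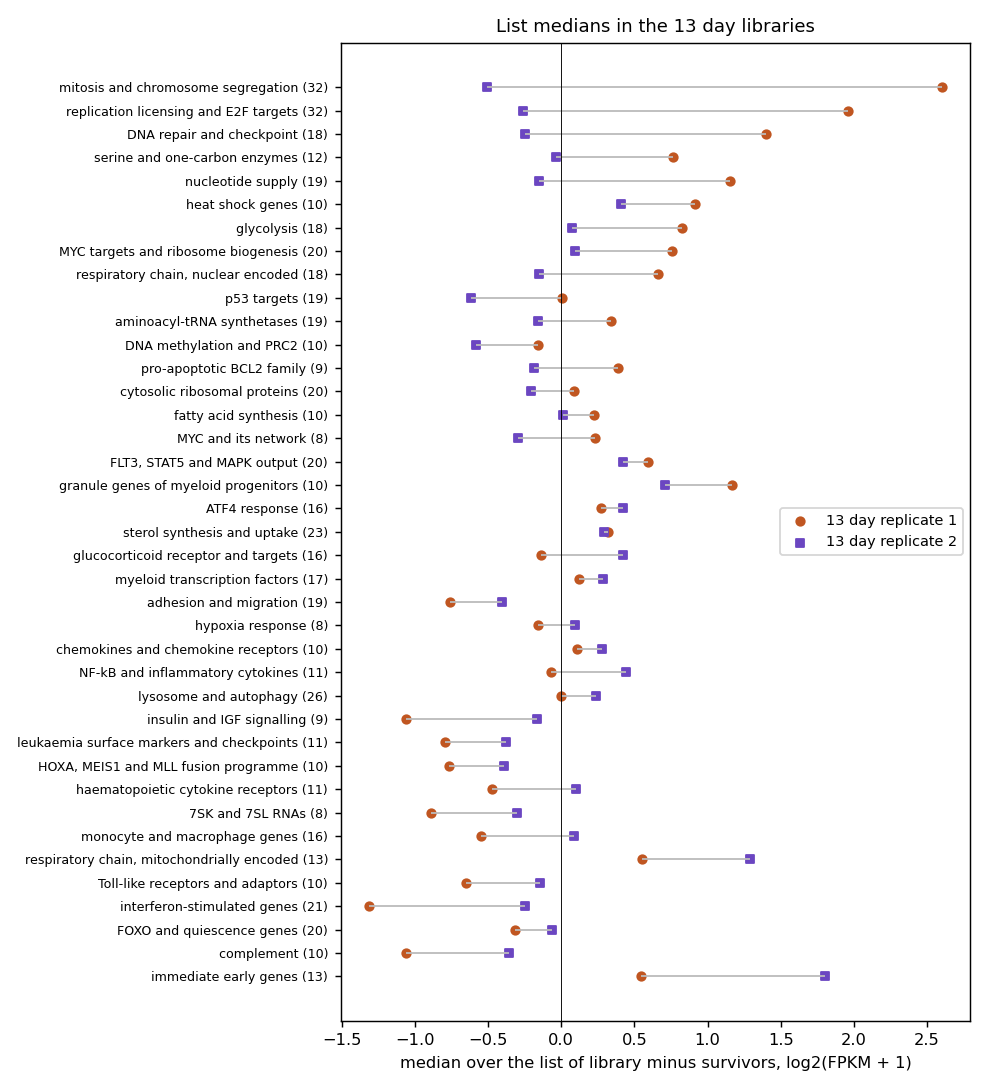
Median change from the survivors on the log2(FPKM + 1) scale (horizontal) over each gene list with 8 or more measured members, in 13 day replicate 1 (circles) and replicate 2 (squares); the number measured is in brackets. Mitosis genes lie at 2.60 and −0.505, and immediate early genes at 0.547 and 1.80.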

How the data were processed

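RNA was sequenced from 8 libraries of MV4-11 cells in 4 groups of 2, whose titles give the group and the replicate number. Per the file headers, the authors deposited FPKM for each gene and no counts. CASAVA, TopHat2 2.0.9, Cuffdiff and the build hg38 (GRCh38) are named in the submitters' processing notes, which give neither their roles nor the scaling between libraries. The depth is unknown. The 18 other libraries of the series, count tables of another experiment, were not used.

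FPKM was taken as log2(FPKM + 1) for entries that reached 1 FPKM in 2 or more libraries, and fitted with limma 3.58.1 (R 4.3.3, trend on) over all 8 libraries, with 4 residual degrees of freedom, or 3 where each 13 day library had a coefficient of its own. An exact permutation test of 2 against 2 libraries cannot go below p = 0.333. Adjusted p-values are Benjamini-Hochberg over all entries tested. Fold changes understate those of low genes.

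On simulated data for the comparison of 13 days with survivors, 18098 genes, the fit recovered 40 of 66 genes changed by log2 2 and 61 of 67 changed by log2 4. For the difference between the 13 day libraries, it recovered 6 of 66 and 50 of 67. False calls numbered 10 of 174 in the first and 5 of 116 in the second. Each simulated gene varied alike in all 8 libraries, unlike the data, where the 13 day pair differed more, and the changed genes were not low ones. Recovery under the spread of the real 13 day pair was not tested.

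The members and the 47 gene lists were chosen with earlier results of these data known. Named genes were the 12 largest shared changes each way, the 10 largest separate ones each way, up to 4 called members a list and 7 pathway heads. Other protein-coding genes were named after their values were seen. A few genes that the rule names are not reported here. Positions are those of GENCODE 29 on GRCh38, on which 99.97% of 56583 shared loci overlap, and transcript lengths come from the same annotation. Python 3.11.15 with pandas 2.3.3 served for tables. Alternatives changed the pseudocount, filter, scaling, trend, genes tested and libraries in the fit.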

Additional observations from a re-analysis of the deposited data

How the results depend on the processing

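All 67 protein-coding genes that rose or fell kept their direction in every setting that tested them. Selection builds in most of this, since each library compared with the survivors lay at least log2 1 beyond their mean and outside their range. Leaving out libraries, or changing the pseudocount, filter or trend, could therefore not reverse a direction. Scaling and centring by length could, but only by a shift larger than the gene's own change. The count still called ran from 0, with only the 4 libraries compared or with centring by transcript length, to 67, with protein-coding genes only. A pseudocount of 0.5 FPKM and a size of log2 0.58 left every count within 1.5 times. The medians of all genes and of a few lists changed sign with the scaling, and more genes lay above than below survivors, unlike in the reported counts, in replicate 1 with median centring and quantile normalisation, in replicate 2 with a mean of 2 FPKM or more, and in both with no filter, with centring by length and without 1 or both untreated libraries. Replicate 1 did so without either survivor library too.

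A pseudocount of 0.1 FPKM gave 68 genes below survivors in replicate 2, 278 higher and 126 lower in replicate 1 than in replicate 2, and 258 and 34 separate in replicates 1 and 2. With no filter, 20 rose (15 shared), 939 lay below survivors in replicate 1, 568 above and 165 below in replicate 2, 652 were higher and 620 lower between the 13 day libraries, and 415 and 166 were separate. A mean of 2 FPKM or more gave 84 above and 53 below survivors in replicate 2, 299 higher and 131 lower between the libraries, and 289 and 76 separate. Median centring gave 71 that fell, all shared, 1770 above and 799 below survivors in replicate 1, and 13 separate in replicate 2. Equal FPKM sums gave 1875 that fell (1148 shared), 88 above and 4309 below survivors in replicate 2, 1768 higher in replicate 1 than in replicate 2, and 625 and 349 separate. Quantile normalisation gave 64 that rose (61 shared). Without a trend, 100 were higher and 30 lower between the libraries, with 103 and 10 separate.

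Protein-coding genes only gave 63 that rose (49 shared) and 204 that fell, 32 above and 52 below survivors in replicate 2, 494 higher and 107 lower between the libraries, and 437 and 37 separate. Those above 0 in all 8 libraries gave 73 that rose (57 shared) and 214 that fell (185 shared), 37 above and 55 below survivors in replicate 2, 523 higher and 119 lower between the libraries, and 464 and 39 separate. Centred within eighths of transcript length, 0 rose and 0 fell, 33 lay above survivors in replicate 2, 320 were higher and 126 lower between the libraries, and 342 and 32 were separate. A size of log2 2 left 16 shared higher and 68 shared lower.

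With only the 4 libraries compared, 2 rose and 15 fell, all shared, and each other count was 0. No untreated libraries gave 10 that rose and 66 that fell, all shared, 302 above and 252 below survivors in replicate 1, 25 higher and 23 lower between the libraries, and 19 separate in replicate 1. No 30 day libraries gave 7 that rose and 59 that fell, all shared, 634 above and 741 below survivors in replicate 1, 16 higher and 12 lower between the libraries, and 10 and 13 separate. Leaving out 1 library gave 3 to 1151 that rose and 34 to 1512 that fell, with 3 to 11 and 47 to 66 shared. It gave 102 to 639 above and 78 to 739 below survivors in replicate 1, 11 to 28 above and 22 to 46 below in replicate 2, 17 to 72 higher and 14 to 36 lower between the libraries, and 12 to 66 and 13 to 27 separate. Where a group kept 1 library, it was assumed to vary like the others. Causes were not tested, except that dropping libraries also lowers the residual degrees of freedom.

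The replicate numbers are not stated to mark a shared culture or day. The differences between replicates 1 and 2 correlated between the 4 groups at r = 0.012 to 0.086 over all genes tested and at 0.13 to 0.32 over protein-coding ones, positive for all 6 pairs of groups. A threshold of 0.1 was thus met by protein-coding genes and not by all genes, and whether the numbers pair the libraries is not settled. A replicate block gave 14 that rose and 66 that fell, all shared, 729 above and 809 below survivors in replicate 1, 6 above and 12 below in replicate 2, 11 higher and 8 lower between the libraries, and 9 and 6 separate. Which of the other settings were planned and which were chosen after seeing the data differs: those on protein-coding genes, transcript length and single untreated or 30 day libraries were chosen after.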

Other observations

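A few markers of other cells differed by replicate number in every group rather than by time. ITGA2B, the platelet integrin chain, had 8.93 and 1.10 FPKM in untreated replicates 1 and 2, 12.3 and 2.23 FPKM in survivors, 7.10 and 1.71 FPKM at 13 days and 11.6 and 1.77 FPKM at 30 days. KRT8, a keratin of simple epithelium, ran the other way, with 1.26 and 6.83, 0.936 and 8.17, 0.792 and 7.09, and 1.72 and 5.99 FPKM in the same order. NCAM1 had 0.250 and 6.74, 0.00768 and 1.68, 0.488 and 2.97, and 0.0452 and 8.15 FPKM. In all 4 groups replicate 1 was the higher library for ITGA2B and the lower for KRT8 and NCAM1. These genes were chosen after their values were seen.

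WT1, a transcription factor often high in acute myeloid leukaemia, stayed low at 13 days, with 1.44 and 0.588 FPKM, against 1.36 in both survivor libraries. Untreated cells had 12.3 and 13.8 FPKM and 30 day cells 16.7 and 13.2 FPKM. It was low in both 13 day libraries, also in replicate 1, where genes of mitosis were high.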
